A study of Mus musculus with 10 samples.

Results

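The genes described here are the mouse 2′-5′ oligoadenylate synthetase (OAS) genes Oas1a, Oas1b, Oas1c, Oas1g, Oas2 and Oas3 and the OAS-like genes Oasl1 and Oasl2. They were taken as every probeset of the array whose gene symbol is one of these 8 genes, which gave 8 of 28856 probesets, 23410 of which carried a symbol and were tested. Of the 8 probesets, 7 carried 1 symbol, and 1 was shared by Oas1a and Oas1g. Oas1a was thus read by a probeset of its own and by the shared one, while Oas1g had no probeset to itself.

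RNA came from the perfused whole brains of 10 female C57BL/6 mice aged 6 to 8 weeks. The 5 Aldara-treated mice received 80 mg of Aldara cream, which holds 5% of the TLR7 ligand imiquimod, on shaved back skin, and the 5 control mice received 80 mg of aqueous cream in the same way. There were 5 applications 24 h apart, and brains were taken 24 h after the last. Each mouse had 1 Affymetrix Mouse Gene 1.0 ST array, and values are log2 expression values made with RMA, a method that corrects background, brings arrays to one distribution and summarises the probes of a probeset. The control mice received a plain aqueous cream rather than the Aldara vehicle, so imiquimod and the other components of the cream cannot be told apart in these arrays.

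OAS proteins sense double-stranded RNA. On binding it they join ATP into short chains with 2′-5′ links, and these chains act as a second messenger of the antiviral response, in which viral and cellular RNA is cut. The genes are held low in resting tissue and are induced by interferons through factors that include STAT2 and IRF9, which act at a promoter sequence called the interferon-stimulated response element. The mouse carries a family of Oas1 copies in 1 cluster with Oas2 and Oas3, and the pair Oasl1 and Oasl2 lies apart on the same chromosome.

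The promoters are shown because the genes share the treatment but differed widely in their response. RefSeq promoter windows (build GRCm38.p6) that run from 250 bases before to 50 bases after an annotated start were matched by symbol for 6 of the 8 members, all but Oas1b and Oas2. They were searched on both strands for the core of the response element, GAAA followed by any 2 bases and GAAA again, and for the core of the gamma-activated site, written TTCNNNGAA, which reads the same on both strands in its fixed letters. In the sequences that follow, each 5′ to 3′ on the strand of its gene, capitals mark matches of the response element core. The 5 windows shown are those of the 4 genes with a match and of Oasl2, the gene with the largest increase.
Oas1a, chr5:120907476-120907775 (-): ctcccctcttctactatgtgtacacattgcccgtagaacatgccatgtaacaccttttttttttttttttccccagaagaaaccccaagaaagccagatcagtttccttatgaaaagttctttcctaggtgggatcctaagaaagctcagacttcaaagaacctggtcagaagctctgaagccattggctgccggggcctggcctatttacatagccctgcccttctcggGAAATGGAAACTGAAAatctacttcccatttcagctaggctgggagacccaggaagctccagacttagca
Oas1g, chr5:120887564-120887863 (-): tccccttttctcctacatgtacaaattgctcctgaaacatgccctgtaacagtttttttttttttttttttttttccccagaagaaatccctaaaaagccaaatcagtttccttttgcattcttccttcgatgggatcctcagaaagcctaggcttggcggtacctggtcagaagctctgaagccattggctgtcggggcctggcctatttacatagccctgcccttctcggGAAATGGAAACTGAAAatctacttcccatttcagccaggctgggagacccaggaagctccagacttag
Oas1c, chr5:120812465-120812764 (-): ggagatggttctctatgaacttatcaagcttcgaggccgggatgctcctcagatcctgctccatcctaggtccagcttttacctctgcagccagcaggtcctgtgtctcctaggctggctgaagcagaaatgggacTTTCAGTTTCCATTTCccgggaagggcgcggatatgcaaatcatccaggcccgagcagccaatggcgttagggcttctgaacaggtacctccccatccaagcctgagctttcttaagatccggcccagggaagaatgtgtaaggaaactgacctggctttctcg
Oas3, chr5:120777610-120777909 (-): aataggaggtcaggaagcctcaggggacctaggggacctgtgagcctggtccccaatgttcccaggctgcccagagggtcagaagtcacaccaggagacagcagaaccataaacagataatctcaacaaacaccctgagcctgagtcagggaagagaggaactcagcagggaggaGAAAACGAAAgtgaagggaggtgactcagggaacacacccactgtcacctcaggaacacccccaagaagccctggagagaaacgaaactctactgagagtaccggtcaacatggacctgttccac
Oasl2, chr5:114896684-114896983 (+): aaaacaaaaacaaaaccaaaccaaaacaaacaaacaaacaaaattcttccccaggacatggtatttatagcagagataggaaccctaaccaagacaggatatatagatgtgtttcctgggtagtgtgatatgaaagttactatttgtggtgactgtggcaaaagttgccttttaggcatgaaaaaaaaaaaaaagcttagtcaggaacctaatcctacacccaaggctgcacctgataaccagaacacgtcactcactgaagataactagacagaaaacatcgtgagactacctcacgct

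The windows of Oas1a and Oas1g, which share a probeset, were 85.3% identical over an alignment of 306 positions, and the other pairs of member windows were 45.9% to 51.6% identical. Oas1a, Oas1g and Oas1c held the same 16-base stretch, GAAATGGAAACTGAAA, which contains 2 overlapping matches of the response element core. It ended 5 bases before the start of Oas1a and 3 bases before that of Oas1g, and in Oas1c it lay on the opposite strand from -114 to -99 relative to the start. There the stretch stood 6 bases short of the interval that RefSeq lists for the adjacent gene Oas1b. The stretch was present in 7 of 32851 promoter windows, which belong to 5 genes, namely these 3 and the apolipoprotein L genes Apol9a and Apol9b. The 2 probesets shared by Apol9a and Apol9b were 1.41-fold and 1.42-fold higher in Aldara-treated mice (limma, adjusted p = 0.0021 and 0.0016). The window of Oas3 held 1 match, from -75 to -66, and those of Oasl1 and Oasl2 held none. Of all windows, 3.44% held at least 1 match of the response element core and 0.225% held 2 or more. The gamma-activated site core was found in the window of Oas1a alone among the 6, from -98 to -90, and in 8.30% of all windows. A match is a description of the letters in the window and is not a measured binding site. Only exact matches were sought, so a window without one is not shown to lack a response element.

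**Figure D1:**
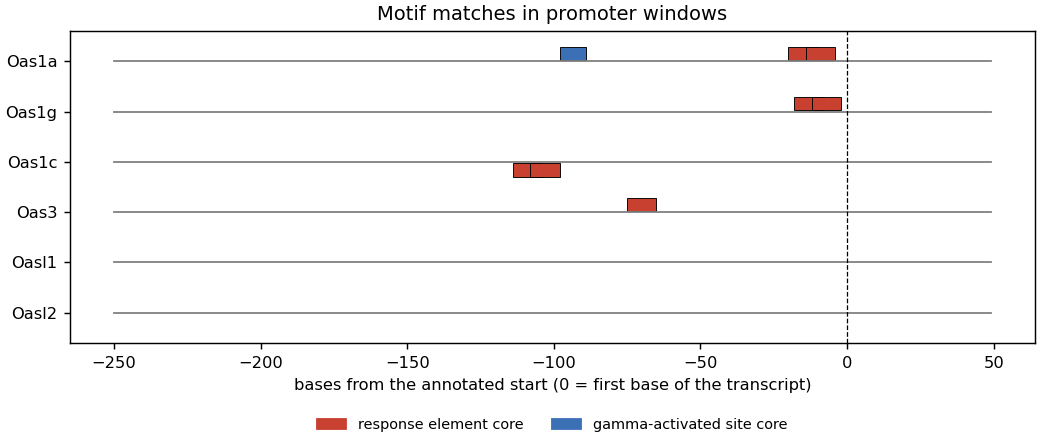
Positions of motif matches in the promoter windows of 6 Oas and Oasl genes, in bases from the annotated start (x axis), with boxes above a line for the strand of the gene and below it for the other strand. The response element core (red) lies close to the start in Oas1a and Oas1g, farther out on the other strand in Oas1c and at -75 to -66 in Oas3, while Oasl1 and Oasl2 have no match in the window.

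The 8 OAS and OAS-like probesets read higher in brains of mice given Aldara. All 8 probesets passed the test (limma, adjusted p under 0.05) and all 8 had their lowest Aldara-treated mouse above their highest control mouse. For comparison, 12.4% of all tested probesets passed in this direction, and 10.5% had groups that did not overlap in this direction (15.3% in the opposite direction). The median log2 fold change of the 8 probesets was 1.44, against -0.04 over all tested probesets. Of the 8, 5 were at least 2-fold higher, which 1.59% of all tested probesets were while passing. Read singly, each of the 8 gave p = 0.0079 in an exact two-sided permutation test over the 252 ways to relabel the arrays. No smaller p can be reached with 5 mice in each group. Any probeset whose groups do not overlap has this p, so it adds nothing to the count of such probesets. In whole brain RNA, a rise in RNA per cell and a larger number of cells that hold the RNA cannot be told apart.

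Oasl2, which encodes an OAS-like protein with ubiquitin-like domains that keeps synthetase activity in the mouse, had the largest increase of the family and ranked 9 of all 23410 tested probesets. Its log2 values in control mice 1 to 5 were 7.69, 7.66, 7.92, 7.93 and 7.95, and in Aldara-treated mice 1 to 5 they were 11.60, 11.47, 11.79, 11.45 and 12.33. The gap between the groups, 3.50 on the log2 scale, was wide compared with the spread within either group. Oasl2 was 14.9-fold higher (95% interval 11.97 to 18.6, limma, adjusted p = 2e-09), and 13.4-fold higher without Aldara replicate 5. Oasl1 is its neighbour on the chromosome. Its protein lacks synthetase activity and is known to hold back translation of the interferon regulator IRF7. Its log2 values were 7.60, 7.52, 7.67, 7.98 and 7.66 in control mice and 8.43, 8.46, 8.61, 8.43 and 8.90 in Aldara-treated mice. The groups were apart by 0.45, and Oasl1 was 1.84-fold higher (95% interval 1.58 to 2.15, adjusted p = 4.1e-05). Within each array, the log2 value of Oasl1 minus that of Oasl2 was -0.30 to 0.05 in control mice and -3.43 to -3.01 in Aldara-treated mice. The difference between their log2 fold changes, Oasl1 minus Oasl2, was -3.02 ± 0.10 (SE; adjusted p = 0.0097 over 28 pairs, exact permutation test).

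Among the Oas1 copies, the probeset shared by Oas1a and Oas1g had the largest increase. Oas1a and Oas1g encode the small active synthetases. The shared probeset had log2 values of 6.86, 6.99, 6.81, 6.98 and 7.13 in control mice and of 9.36, 8.99, 9.52, 9.19 and 10.49 in Aldara-treated mice. It was 5.87-fold higher (95% interval 4.20 to 8.21, adjusted p = 3.6e-06), with a gap of 1.85 between the groups, and how much of this came from either gene cannot be told. The probeset of Oas1a alone had log2 values of 7.28, 7.20, 7.29, 7.19 and 6.84 in control mice and of 8.40, 8.01, 8.48, 7.94 and 9.13 in Aldara-treated mice. Its groups did not overlap either, but it was only 2.35-fold higher (95% interval 1.76 to 3.13, adjusted p = 0.00039). The log2 fold change of the Oas1a probeset minus that of the shared probeset was -1.32 ± 0.16 (SE; adjusted p = 0.0097 over 28 pairs, exact permutation test).

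Oas1b is the gene whose intact form gives mice resistance to flaviviruses. In the C57BL/6 strain it carries an early stop codon, and RefSeq lists it as a transcribed pseudogene. It had the tightest control values of the family, at 6.11, 6.03, 6.10, 6.11 and 6.06, and rose to 7.98, 7.82, 8.58, 7.94 and 9.20 in Aldara-treated mice. This was a 4.68-fold increase (95% interval 3.37 to 6.48, adjusted p = 9.5e-06), with a gap of 1.71 between groups. Its SD rose from 0.035 in control mice to 0.580 in Aldara-treated mice (n = 5 each). Whether its control values stood above background is not known. Oas1c, which lies next to Oas1b, had the smallest increase among the 8 probesets. Its log2 values were 6.52, 6.40, 6.46, 6.36 and 6.50 in control mice and 6.93, 6.92, 6.67, 6.74 and 6.90 in Aldara-treated mice, a gap of 0.15. Oas1c was 1.31-fold higher (95% interval 1.20 to 1.42, adjusted p = 0.00024), and a log2 difference of at least its size was seen for 4.55% of all tested probesets. The log2 fold change of Oas1b exceeded that of Oas1c by 1.84 ± 0.27 (SE; adjusted p = 0.0097 over 28 pairs, exact permutation test).

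The larger synthetases Oas2 and Oas3 also rose. Oas2, whose protein is built from repeated OAS units, had log2 values of 6.86, 7.01, 6.95, 7.09 and 6.85 in control mice and of 8.51, 8.20, 8.64, 8.30 and 9.36 in Aldara-treated mice. It was 3.14-fold higher (95% interval 2.41 to 4.10, adjusted p = 2e-05), and its groups were apart by 1.11. Oas3 encodes the largest enzyme of the family, which prefers long double-stranded RNA. It had log2 values of 7.12, 6.84, 6.98, 7.20 and 6.87 in control mice and of 7.44, 7.37, 7.63, 7.39 and 8.35 in Aldara-treated mice. The gap between groups was only 0.17, and Aldara replicate 5 stood 0.90 above the mean of the other Aldara-treated mice. Oas3 was 1.55-fold higher (95% interval 1.21 to 1.99, adjusted p = 0.011), and 1.37-fold higher without Aldara replicate 5 (adjusted p = 0.0012). The log2 fold changes of Oas2 and Oas3 differed by 1.02 ± 0.08 (SE; adjusted p = 0.0097 over 28 pairs, exact permutation test).

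**Figure D2:**
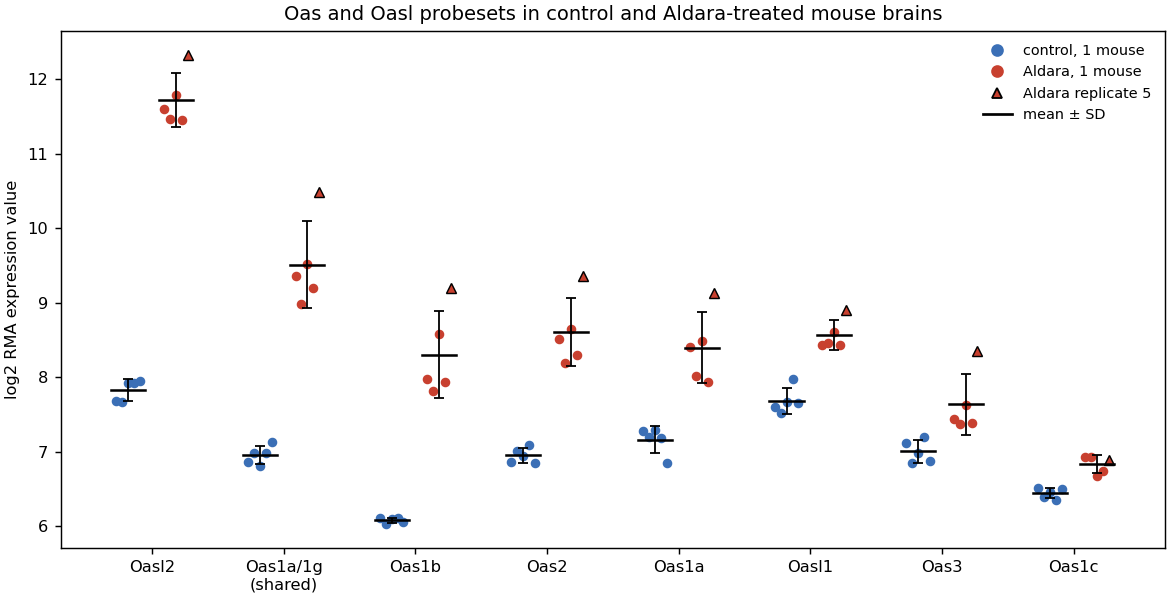
Log2 RMA expression values (y axis) of the 8 Oas and Oasl probesets in each of 5 control brains (blue) and 5 Aldara brains (red), with black lines for the mean and bars for the SD. Every Aldara point lies above every control point of its probeset, with the widest gap, 3.50, in Oasl2 and the narrowest, 0.15, in Oas1c, and Aldara replicate 5 (triangle) is the highest for 7 of 8 probesets.

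By log2 fold change the 8 probesets were ordered Oasl2, shared Oas1a and Oas1g, Oas1b, Oas2, Oas1a, Oasl1, Oas3 and Oas1c, from 3.90 down to 0.38. Of the 28 pairs of probesets, 25 differed in log2 fold change (adjusted p under 0.05, exact permutation tests on the difference within each array), and 23 to 24 did when any 1 array was left out. Of the 7 pairs of neighbours in the order, 4 differed. The shared probeset exceeded Oas1b by only 0.33 ± 0.10 (SE; adjusted p = 0.027). The 3 pairs that missed the threshold were Oas1a against Oasl1, with a difference of 0.35 ± 0.18 (SE; adjusted p = 0.091), Oas3 against Oasl1, with -0.25 ± 0.11 (SE; adjusted p = 0.060), and Oas1c against Oas3, with -0.25 ± 0.20 (SE; adjusted p = 0.27). Probesets differ in how strongly their signal follows the amount of RNA, so the order is one of array responses and need not be that of the RNA amounts.

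The other Oas1 copies on the array, 4 genes of the same cluster, did not pass the test. Oas1d, known for its expression in the ovary, had log2 values of 5.39 to 5.54 in control mice and of 5.39 to 5.57 in Aldara-treated mice, and these differed by 0.04 (standard error 0.04) on average. The differences of Oas1e, Oas1f and Oas1h were -0.07, 0.01 and -0.08 (standard errors 0.04, 0.05 and 0.03). Of these 4 genes, 1 had an unadjusted p under 0.05 in limma and 0 passed by the methods' t-test. Their 95% intervals for the log2 fold change all lay between -0.17 and 0.13, below the interval of each member probeset. Their mean log2 levels of 5.38 to 6.32 in control mice were below the 6.45 of Oas1c, and whether they stood above background is not known. Over all arrays, the mean of Oas1c was at percentile 24.5 of the tested probesets.

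**Figure D3:**
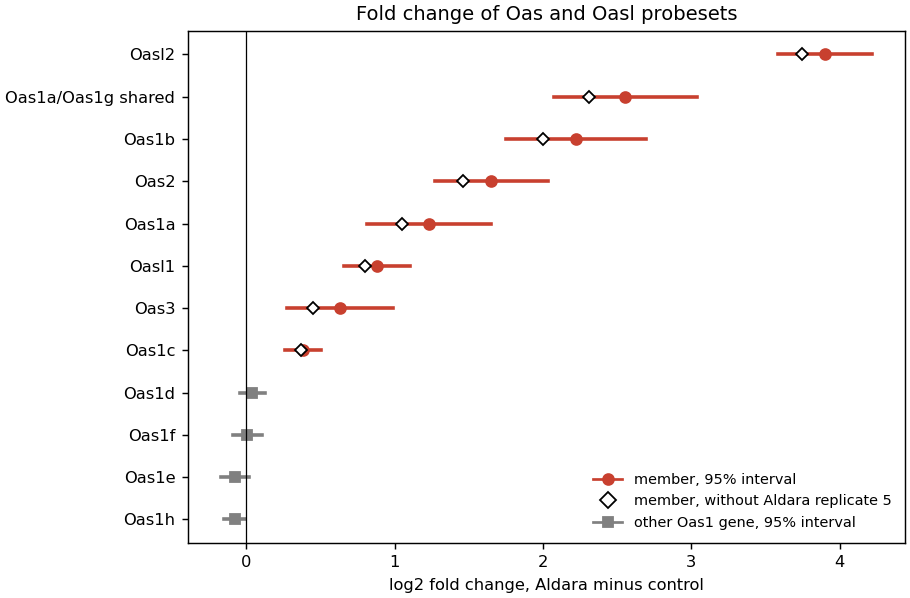
Log2 fold change, Aldara minus control (x axis), of the 8 Oas and Oasl member probesets (red, with 95% intervals from limma) and of 4 other Oas1 genes (grey, with 95% intervals). Diamonds give the members without Aldara replicate 5, which lowered them all to between 0.37, for Oas1c, and 3.75, for Oasl2.

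The Aldara-treated mice differed from one another in how far the probesets read above control, and in much the same order from gene to gene. Each mouse had 1 array, so a difference between mice and a difference between arrays cannot be told apart. In the fit with array weights, Aldara replicate 5 had a weight of 0.46. Over the 8 probesets, the mean log2 difference from the control mean was 1.57, 1.39, 1.73, 1.41 and 2.32 in Aldara-treated mice 1 to 5, and between -0.06 and 0.09 in the control mice. Aldara replicate 5 was the highest Aldara-treated mouse for 7 of 8 probesets, and Aldara replicate 3 was second for the same number. Oas1c was the exception in both, since there Aldara replicate 1 was highest and Aldara replicate 3 was lowest. Among the 2901 probesets higher in Aldara-treated mice, Aldara replicate 5 was the highest in 45.1%. The distance of Aldara replicate 5 from the mean of the others was largest for the shared Oas1a and Oas1g probeset, at 1.23, and for Oas1b, at 1.12, and smallest for Oas1c, at 0.08. The SD was larger among Aldara-treated than among control mice for all 8 probesets, and for 6 of 8 without Aldara replicate 5, where 55.0% of all tested probesets had the larger SD in Aldara-treated mice with that replicate included. Without that mouse, all 8 probesets still passed, with log2 fold changes of 0.37 to 3.75.

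**Figure D4:**
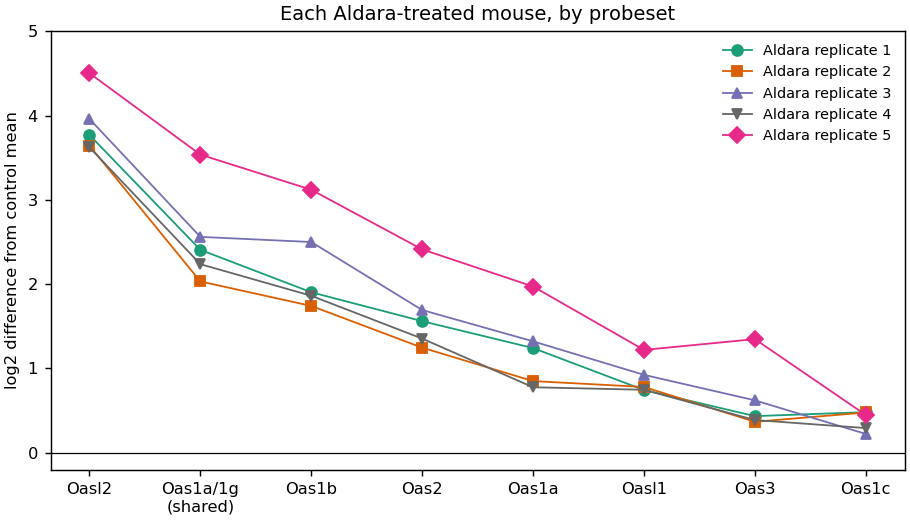
Log2 difference from the control mean (y axis) of the 8 Oas and Oasl probesets in each Aldara-treated mouse, 1 line per mouse, with the probesets ordered by fold change. The line of Aldara replicate 5 runs above the others except at Oas1c, and it is farthest above them at the shared Oas1a and Oas1g probeset, where it reaches 3.54 against 2.03 to 2.56.

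RNA of genes of interferon receptor signalling was higher in part, while the proteins and their activity were not measured. Of 8 measured genes of interferon receptor signalling, 5 were higher and the others did not pass, and the median log2 fold change of the 8 was 0.61, against -0.04 over all tested probesets, 12.4% of which were higher. Irf7, which drives interferon production, was 13.7-fold higher, and Irf9, the DNA-binding subunit of the factor that acts on the response element, was 3.89-fold higher (limma, adjusted p = 4e-09 and 1.2e-08). Stat2, its partner, was 1.98-fold higher, with a log2 value of 10.79 in Aldara replicate 5 against at most 10.14 in the other Aldara-treated mice. The receptor chains Ifnar2 and Ifnar1 were 1.84-fold and 1.26-fold higher. The kinases Jak1 and Tyk2 had log2 differences of -0.005 and 0.03, and Irf3, a factor that is switched on by phosphorylation, had 0.03 (standard errors 0.03, 0.04 and 0.04).

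Other sensors of nucleic acids rose as well, with 9 of 10 measured genes higher, against 12.4% of all tested probesets, and a median log2 fold change of 1.52. Ddx58, which encodes the RNA helicase RIG-I, was 5.70-fold higher, Eif2ak2, which encodes the double-stranded RNA kinase PKR, was 4.30-fold higher, and Ifih1, which encodes the long RNA sensor MDA5, was 3.90-fold higher. Dhx58, the third helicase of the RIG-I family, was 3.28-fold higher. Tlr7, the receptor that imiquimod binds, was 3.25-fold higher, Zbp1, a sensor of Z-form nucleic acids, was 2.54-fold higher, and Tlr3, the endosomal receptor for double-stranded RNA, was 1.69-fold higher. The increases were small for Cgas, a DNA sensor whose fold is related to that of the OAS enzymes, at 1.14-fold, and for Mavs, the adapter of the RNA helicases, at 1.11-fold. Mavs did not pass after each array was centred on its median (limma, adjusted p = 0.064), which left 8 higher sensor genes. Adar, which edits double-stranded RNA, did not pass, with a log2 difference of 0.04 (standard error 0.04). As in the OAS family, Aldara replicate 5 had the highest mean of the Aldara-treated mice over the sensor genes, at 9.27 against at most 8.79. It was also highest over the signalling genes, at 10.01 against at most 9.85. Read singly, it was the highest for 8 of 10 sensor genes but for only 4 of 8 signalling genes, and the lowest for Irf3.

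**Figure D5:**
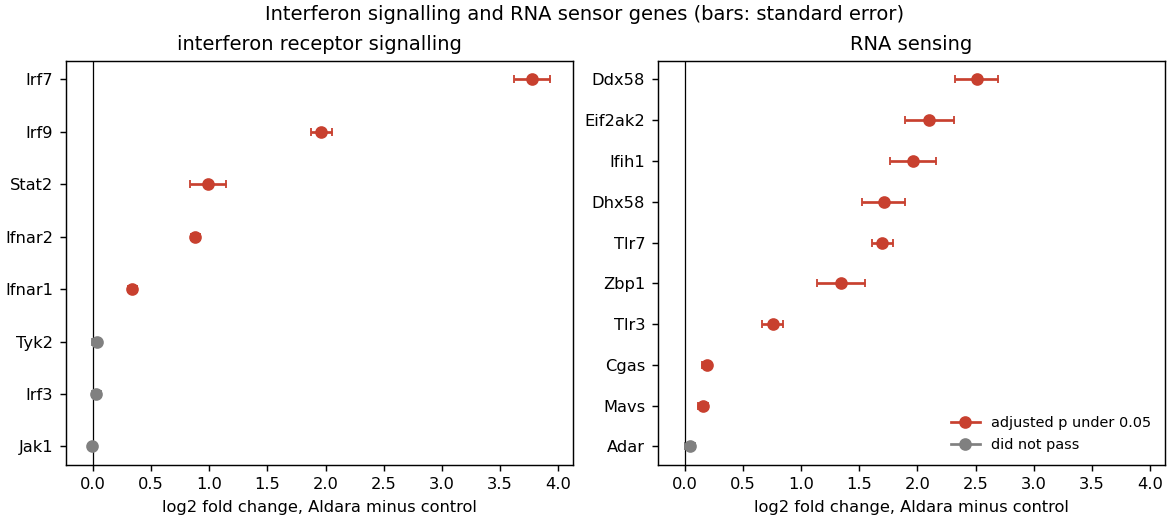
Log2 fold change, Aldara minus control (x axis), with standard errors from limma as bars, of 8 genes of interferon receptor signalling (left) and 10 genes of nucleic acid sensing (right). Red points passed the test and grey points did not, and the largest increases are those of Irf7, at 3.77, and Ddx58, at 2.51.

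Genes with a product or a domain that can act against the pathway downstream of the OAS enzymes did not pass. Abce1, which encodes an ATP-binding protein of ribosome recycling that also opposes the pathway, differed by 0.08 on the log2 scale (standard error 0.03, limma, adjusted p = 0.089). Pde12, a phosphodiesterase that degrades 2′-5′ oligoadenylates, had -0.05 (standard error 0.04, adjusted p = 0.39), and Akap7, an anchoring protein with a phosphodiesterase domain of the same activity, had -0.11 (standard error 0.04, adjusted p = 0.056). Of these 3 genes, 2 had an unadjusted p under 0.05 in limma and 0 passed by the methods' t-test. Abce1 passed without Aldara replicate 4 (log2 fold change 0.10), and Akap7 passed without Aldara replicate 5, control replicate 2 or control replicate 4 (-0.13, -0.12 and -0.13). Each of these differences is below the smallest increase among the OAS probesets.

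Genes that flank the OAS clusters differed little between the groups. Of the 20 protein-coding genes that lie nearest to the Oas and the Oasl cluster, with 5 on each side, 3 were higher and 8 were lower, where 12.4% and 21.0% of all tested probesets were. The log2 fold changes of the 20 genes ran from -0.23 to 0.20, so none reached that of Oas1c. The higher ones were Ankrd13a, near the Oasl pair, with 0.20, Trafd1, a zinc finger gene near the Oas cluster, with 0.18, and Rpl6, a ribosomal protein gene, with 0.15. Rpl6 was read from a probeset whose number lies outside the range of the other neighbours, and its place on the genome was not checked. The lower ones were Hectd4, Rph3a, Rita1, 2210016L21Rik, Rasal1, Dtx1, 4930519G04Rik and Unc119b, with -0.23 to -0.11. Dtx1 and Rph3a are the nearest measured genes on the flanks of the Oas cluster. The number of lower neighbours depended on the scaling, with 13 after each array was centred on its median and 5 after the overall median difference was taken off.

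The genes most like each member over the 10 arrays were found by the root mean square (RMS) distance between the log2 differences from the control mean. For Oasl2 they were Ifit1, Ifi207 and Ifit3, interferon-induced genes, with RMS distances of 0.13 to 0.15. For the shared Oas1a and Oas1g probeset they were Ddx58, Gm4951 and Rnf213 (0.13 to 0.15), and for Oas1b they were Ddx60, a helicase gene, Trim30d and the chemokine gene Cxcl10 (0.11 to 0.16). For Oas2 they were Dhx58 and the gene pair Parp9 and Dtx3l, whose proteins form a complex (0.10 to 0.12). For Oas1a they were Mlkl, the effector of necroptosis, Nlrc5, which drives MHC class I genes, and Ifi35 (0.13 to 0.15). Oasl1 was closest to Irf1, Tap2, a subunit of the peptide transporter for MHC class I, and Kcnk6 (0.09 to 0.11), and Oas3 to Cmpk2, Trim56 and Mgst1 (all 0.13). Those of Oas1c were Ptpn1, a tyrosine phosphatase gene, Mthfd2 and Stk40 (0.05 to 0.07). The distance depends on the size of the fold change as well as on the differences between mice.

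Markers of cell types that the brains could hold were read beside the shares of all tested probesets, 12.4% higher and 21.0% lower. The tissue label was borne out by neuron markers, whose mean log2 level was 11.77 to 11.96 on all arrays. All 8 neuron markers were lower, by at most 0.21, led by Slc17a7 and Rbfox3, but only 4 were after the overall median difference was taken off. Of 9 monocyte and macrophage markers, 6 were higher, such as Ms4a7 with a log2 fold change of 4.04 and Lyz2 with 3.62, and 1 was lower, and their mean level rose from 6.87 to 6.98 in control mice to 8.25 to 8.43 in Aldara-treated mice. Microglia markers were higher for 5 of 8, such as Olfml3 and Csf1r with 1.10 and 0.84. They were lower for 2, Siglech and Gpr34, with -0.77 and -0.27, and P2ry12 did not pass, with 0.02. NK cell markers were higher for 6 of 7, led by Nkg7 with 1.69 and Gzma with 1.36. T cell markers were higher for 2 of 8, such as Cd3g with 0.51, and lower for 1, Cd4, with -0.32. B cell markers were higher for 2 of 5, Blnk with 1.05 and Cd79b with 0.79, and Ms4a1 and Cd79a did not pass. Endothelial markers were higher for 4 of 6, such as Pecam1 with 0.96 and Cdh5 with 0.88. Astrocyte markers were higher for 3 of 6, with Gfap at 1.73 and Aqp4 at 0.36. The other 3, S100b, Slc1a3 and Gja1, were lower, with -0.43, -0.25 and -0.23. Oligodendrocyte markers were higher for 1 of 5, Mag, and lower for 1, Mbp, and Mag did not pass after each array was centred on its median (limma, adjusted p = 0.15). Of 5 plasmacytoid dendritic cell markers, Bst2, itself an interferon-induced gene, was higher and Siglech, also a microglia marker, was lower. Of 8 neutrophil and 3 red blood cell markers, such as Elane, Ltf, Epb42 and Slc4a1, 0 passed in limma, with 2 and 0 at an unadjusted p under 0.05 and 1 and 0 by the methods' t-test. After each array was centred on its median, Elane, Ltf and Epb42 were lower. After the overall median difference was taken off, 1 neutrophil marker, S100a8, was higher instead (limma, adjusted p = 0.031). Aldara replicate 5, the highest for most OAS probesets, had the highest mean level of the Aldara-treated mice in NK cell markers (7.34 against at most 7.15), plasmacytoid dendritic cell markers (8.97 against at most 8.84), astrocyte markers (10.78 against at most 10.75) and neuron markers (11.82 against at most 11.80). Read singly, it was the highest Aldara-treated mouse for 3 of 7 NK cell, 4 of 6 astrocyte and 4 of 8 neuron markers. Among the plasmacytoid dendritic cell markers its lead lay mainly in Bst2, at 10.79 against at most 10.01. There it was below the highest of the other mice for Tcf4, Ccr9 and Cox6a2. It had the lowest mean level in microglia markers (8.94), B cell markers (6.83) and neutrophil markers (6.24). For monocyte and macrophage markers it read 8.34, inside the range of the others. The part of these cells in the OAS increases was not tested.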

How the data were processed

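Whole-brain RNA of 5 control and 5 Aldara-treated mice was measured on Affymetrix Mouse Gene 1.0 ST arrays. What the authors deposited is a log2 expression value per probeset and array, computed in GeneSpring GX by RMA. The library file is not given in the sources used here, and scanner values were not used. Symbols came from the platform annotation (21789 probesets with 1 symbol, 1621 with several, 5446 with none). Groups were compared with limma 3.58.1 in R 4.3.3 over the 23410 probesets with a symbol, with Benjamini-Hochberg adjustment over all of them and a threshold of 0.05. Pairs of probesets were compared with exact permutation tests (scipy 1.17.1). Each listed gene was read from its probeset of highest mean among those with 1 symbol. Genes are named as all members, all measured genes of the pathway lists, neighbours that passed, up to 2 markers per list with the smallest p and the 3 genes most like each member, and further neighbours, markers and the Apol9 genes were added after the values or sequences were seen. Promoter windows came from RefSeq (GRCm38.p6). Members, lists and tests were chosen with earlier results of these data known. The fit was tested on simulated data with 200 of 23410 probesets changed in the Aldara against control comparison. It recovered 99% of the 1.5-fold and 100% of the 3-fold changes, with 5 false calls among 204. The simulated noise was independent between probesets, with the same SD in both groups. In the data, the SD of all 8 OAS probesets was larger in Aldara-treated mice. Arrays correlated at 0.998 to 0.999 within control mice, 0.995 to 0.999 within Aldara-treated mice and 0.980 to 0.988 between groups, and the number of arrays limits the precision. Scan dates and batches were not known. Alternatives in scaling, probeset filter, variance model, test, array weights, replicate block and left-out arrays were tried. Some listed genes, among them Enpp1, were not analysed here.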

Additional observations from a re-analysis of the deposited data

Results flagged for a closer look

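Among 198 groups of 5 mice, for 99 named genes and probesets, 18 had a highest or lowest mouse set far apart from the others. For separate groups chance gives about 1 in 20, but these groups share the same 10 arrays and are not independent. Of the 18, 7 concerned Aldara replicate 5 and 2 concerned the OAS family. In Aldara replicate 5, Oas3 read 8.35 against at most 7.63 in the other Aldara-treated mice. The same mouse was highest for Nkg7 (8.75), Mlkl (8.07), Gm4951 (10.04) and Trim56 (9.43), and lowest for Cd79b (7.71) and Irf3 (8.27). Mlkl, Gm4951 and Trim56 were named because their values over the arrays were like those of a member. Their flags in this mouse therefore follow in part from that choice. In control replicate 5, the probeset of Oas1a alone read 6.84 against at least 7.19 in the other control mice, while the shared Oas1a and Oas1g probeset read 7.13, its highest control value. That mouse was also lowest for Tyk2 (8.01) and highest for Ddx54 (9.11). Control replicate 1 was highest for Irf7 (6.89) and lowest for Gfap (9.26), Gm4951 (6.08) and Ddx60 (5.83). The remaining values were those of Cdh5 in control replicate 4 (8.52), Mag in control replicate 3 (11.06), Git2 in Aldara replicate 2 (9.23) and Ddx54 in Aldara replicate 1 (9.08).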

How the results depend on the processing

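The log2 fold changes of the 8 OAS probesets kept their sign and passed in all 161 alternative values. They ranged from 3.75 to 3.97 for Oasl2 and from 0.34 to 0.43 for Oas1c, and the value nearest the threshold was that of Oas3 by the methods' t-test (adjusted p = 0.043). Only 2 member probesets, Oasl2 and the shared Oas1a and Oas1g probeset, remained among the brighter probesets, and both passed, as did 4 nucleic acid sensor genes. Small differences depended on the setting. With arrays centred on a common median, 2 other Oas1 genes (Oas1e and Oas1h), Akap7 and 13 neighbours were lower. Akap7 was also the 1 lower gene of its list with array weights, an intensity trend, quantile normalisation or the brighter probesets, and Abce1 the 1 higher gene with an intensity trend, the brighter probesets or the median difference set to 0, a setting that left 5 lower neighbours. When any 1 array was left out, the counts over Abce1, Pde12 and Akap7 were 0 to 1 in each direction. Of the other Oas1 genes, 0 to 1 was lower (Oas1h, without control replicate 5). Lower neighbours numbered 6 to 8. Of 480 counts of cell type markers, 25 moved by over 1.5 times or changed to or from 0. Arrays with the same replicate number had deviations that correlated at -0.11 to 0.25, so the numbers were not taken to pair the mice. With the replicate number as a block, all 8 OAS probesets passed, with a highest adjusted p of 0.020, for Oas3, and 6 neighbours were lower. Whether a probeset stood above background cannot be told without scanner values, which bears most on Oas1b, Oas1c and the other Oas1 genes.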
